A study of Mus musculus with 20 samples.

Results

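The 7 genes described here code for water channels and for subunits of an ion pump in the mouse preimplantation embryo. They are the aquaporins Aqp3, Aqp8, Aqp9 and Aqp11, and Atp1b1, Atp1b2 and Atp1b3, the beta subunits of the sodium-potassium ATPase. They were taken by symbol from the table of raw counts, in which they are 7 of 25208 genes, and were followed across all 10 groups of the study. RNA was sequenced with Smart-seq2, a full-length method for very small inputs, from embryos that the labels give as WT and that were cultured from the zygote in KSOM at 37°C and 5% CO2. At the late 8-cell stage there were 4 groups, namely P300 siRNA with the I1394G rescue, P300 siRNA with the NaCr rescue, P300 siRNA alone, and control. At the late 2-cell, 4-cell and early 8-cell stages there were 2 groups each, P300 siRNA and control. Every group held 2 libraries, and both rescue groups also carried the P300 knockdown. P300, encoded by Ep300, is a transcriptional coactivator that acetylates histones. The sources used here do not spell out I1394G or NaCr, and do not give what the controls received, the number of embryos behind a library or whether the libraries of a group came from separate cultures. P-values therefore measure only the spread between these libraries, which may be technical.

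The sodium-potassium ATPase consists of a catalytic subunit and a beta subunit that brings the enzyme to the cell surface. In the later mouse embryo the outer, trophectoderm cells pump sodium towards the inside, water follows in part through aquaporins, and tight junctions seal the layer, so that the fluid-filled blastocoel forms. AQP3 and AQP9 pass water and glycerol, AQP8 passes mainly water, and AQP11 lies mostly on internal membranes such as the endoplasmic reticulum. All stages studied here precede that cavity. In GENCODE on GRCm38, Aqp3 lies at chr4:41092722-41098183, Aqp9 at chr9:71110659-71168682, Aqp11 at chr7:97724006-97738289 and Aqp8 at chr7:123462291-123468004. Atp1b1 lies at chr1:164437109-164458355, Atp1b2 at chr11:69599736-69605942 and Atp1b3 at chr9:96332655-96364442.

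The 3 expressed water channels differ in the letters upstream of their start sites, and their promoters are shown because the 3 genes followed different courses. Each run covers 250 bases before to 50 bases after a RefSeq start site of GRCm38.p6, on the minus strand, written 5′ to 3′, with capitals marking TATAAA or GGGCGG on either strand. The windows are chr4:41098134-41098433 for Aqp3, chr9:71163240-71163539 for the first of 2 listed Aqp9 starts, and chr7:97738198-97738497 for Aqp11.
Aqp3: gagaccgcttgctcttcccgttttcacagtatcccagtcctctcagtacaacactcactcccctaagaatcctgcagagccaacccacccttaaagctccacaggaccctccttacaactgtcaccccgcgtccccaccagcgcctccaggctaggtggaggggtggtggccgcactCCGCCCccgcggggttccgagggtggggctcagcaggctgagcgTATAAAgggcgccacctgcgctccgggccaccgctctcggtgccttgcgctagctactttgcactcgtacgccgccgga
Aqp9: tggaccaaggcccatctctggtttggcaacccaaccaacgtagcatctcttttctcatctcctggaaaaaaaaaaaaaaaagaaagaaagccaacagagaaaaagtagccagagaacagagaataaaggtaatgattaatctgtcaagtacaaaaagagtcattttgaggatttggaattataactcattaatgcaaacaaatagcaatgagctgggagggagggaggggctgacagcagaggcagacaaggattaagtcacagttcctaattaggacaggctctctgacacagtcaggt
Aqp11: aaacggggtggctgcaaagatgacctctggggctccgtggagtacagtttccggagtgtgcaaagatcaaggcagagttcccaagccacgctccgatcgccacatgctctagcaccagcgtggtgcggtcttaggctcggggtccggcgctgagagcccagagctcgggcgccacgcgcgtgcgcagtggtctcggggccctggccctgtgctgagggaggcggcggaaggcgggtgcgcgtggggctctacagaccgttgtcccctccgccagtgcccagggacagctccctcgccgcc
The Aqp3 window held TATAAA on the sense strand, beginning at -29 from the start, and 1 GGGCGG on the opposite strand at -73, in a sequence of 64.0% G and C. Neither motif occurred in the Aqp9 or Aqp11 window. TEAD, AP-2, GATA and Kruppel-like motifs were searched as well. The Aqp3 window held 1 Kruppel-like match (GGGNGTG) on the opposite strand at -195, and the Aqp9 and Aqp11 windows held none of these. Of 32851 RefSeq mouse promoters of this length, 13.6% held TATAAA, 35.7% held GGGCGG and 29.2% held GGGNGTG, counting both strands. The letters are a description of these windows. No factor's binding was measured, and a link of the motifs to the courses was not tested. RefSeq entries were matched for Aqp3, Aqp8, Aqp9, Aqp11, Atp1b1 and Atp1b3, that is for 6 of the 7 genes.

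Library totals ranged from 3.20 M counts (P300 siRNA, late 8-cell, replicate 1) to 24.8 M. CPM values below use library sizes scaled by TMM, differences are log2 fold changes ± SE from edgeR's quasi-likelihood test, and a gene was called at a Benjamini-Hochberg adjusted p under 0.05 over 16603 genes. The siRNA's target Ep300 had 14.1 CPM in P300 siRNA embryos against 62.2 CPM in controls at the early 8-cell stage (-2.15, adjusted p = 8.19e-04). At the late 8-cell stage it had 14.7 ± 2.12 CPM in P300 siRNA embryos and 18.6 ± 4.85 CPM in controls (SD, n = 2 each; -0.36, adjusted p = 0.500), so the label was not separated there by its own transcript. At that stage 11 embryo and oocyte markers, all detected, summed to 3374 and 4185 CPM in the P300 siRNA libraries against 8904 and 9428 CPM in the controls. Over the 20 libraries Dppa3 ranged from 2025 to 10257 CPM and Tcl1 from 2.44 to 9645 CPM, while no other of the 11 exceeded 1111 CPM. The sums therefore rest largely on Dppa3 and Tcl1 and do not give the direction of each marker. Blood markers summed to 47.0 and 48.8 CPM in the P300 siRNA libraries against 6.95 and 7.91 CPM in the controls, mostly Cd68, with Hbb-b1 and Hba-a1 at 0 in all 20 libraries. Cumulus and granulosa markers summed to 5.84 and 7.23 CPM in the P300 siRNA libraries against 0.221 and 0.359 CPM in the controls. The embryo marker sum was also lower at the 4-cell stage (5145 and 6420 CPM in P300 siRNA embryos against 9044 and 10222 CPM in controls). The same held at the early 8-cell stage (4917 and 5047 CPM in P300 siRNA embryos against 9499 and 10891 CPM in controls). In the late 8-cell rescue groups the embryo markers summed to 8590 and 8873 CPM with I1394G and 10622 and 11370 CPM with NaCr. Blood markers summed there to 35.3 and 49.8 CPM with I1394G and 30.7 and 37.2 CPM with NaCr. The part of these shifts in the results below was not tested. In bulk samples, fewer cells of a type and less RNA per cell cannot be told apart.

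Aqp3, an aquaglyceroporin, rose steeply in controls at the late 8-cell stage, was lower in P300 siRNA embryos of that stage and was higher again in both rescue groups. Its late 8-cell values were 142 and 173 CPM with I1394G, 219 and 200.2 CPM with NaCr, 32.7 and 30.8 CPM with P300 siRNA alone, and 245 and 219 CPM in controls. The P300 siRNA libraries lay far below all 6 others. Aqp3 was 7.33-fold lower in P300 siRNA embryos than in controls (-2.87 ± 0.33, adjusted p = 1.31e-05). Against P300 siRNA alone it was 4.98-fold higher with I1394G (2.32 ± 0.32, adjusted p = 0.000590) and 6.62-fold higher with NaCr (2.73 ± 0.32, adjusted p = 0.000115). The comparisons of P300 siRNA with control and of each rescue with P300 siRNA share the same P300 siRNA libraries. These 3 calls held in every alternative and with every library left out in turn.

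Set against controls, neither rescue group passed the test for Aqp3. The difference was -0.56 for I1394G (95% interval -1.19 to 0.07, adjusted p = 0.368) and -0.15 for NaCr (95% interval -0.78 to 0.48, adjusted p = 0.906). All 4 rescue libraries lay below both controls, narrowly for NaCr replicate 1 (218.6 CPM) against control replicate 2 (219.3 CPM). Groups did not overlap for 62.0% of all genes with I1394G against control and for 55.5% with NaCr. A fit to only the 4 I1394G and control libraries called Aqp3 lower with I1394G (-0.49, adjusted p = 0.0104). The rescue groups differed from each other by -0.41, I1394G minus NaCr, without passing the test (adjusted p = 1). They did not overlap, as for 36.7% of all genes.

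Before the late 8-cell stage Aqp3 was not called in the knockdown. At the late 2-cell stage it had 4.38 and 2.95 CPM in P300 siRNA embryos and 7.06 and 2.61 CPM in controls, the lowest levels of the study. The 4-cell values were 32.6 and 20.2 CPM in P300 siRNA embryos and 17.5 and 22.4 CPM in controls (0.39, adjusted p = 0.424), and the groups overlapped. At the early 8-cell stage the values were 25.1 and 24.4 CPM in P300 siRNA embryos and 31.1 and 27.6 CPM in controls (-0.25, adjusted p = 0.642). These libraries did not overlap, as for 50.9% of all genes. Between the early and late 8-cell stages Aqp3 rose 7.90-fold in controls (2.98 ± 0.33, adjusted p = 1.26e-05), while the change in P300 siRNA embryos was 0.35 (adjusted p = 0.489). The knockdown difference itself changed between these stages by -2.63 ± 0.44 (adjusted p = 0.00336). By mean the 4 late 8-cell groups ranked control, NaCr, I1394G and P300 siRNA, and only the step from I1394G to P300 siRNA was called. Neighbours did not overlap, as for 55.5%, 36.7% and 57.9% of all genes in that order.

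**Figure D1:**
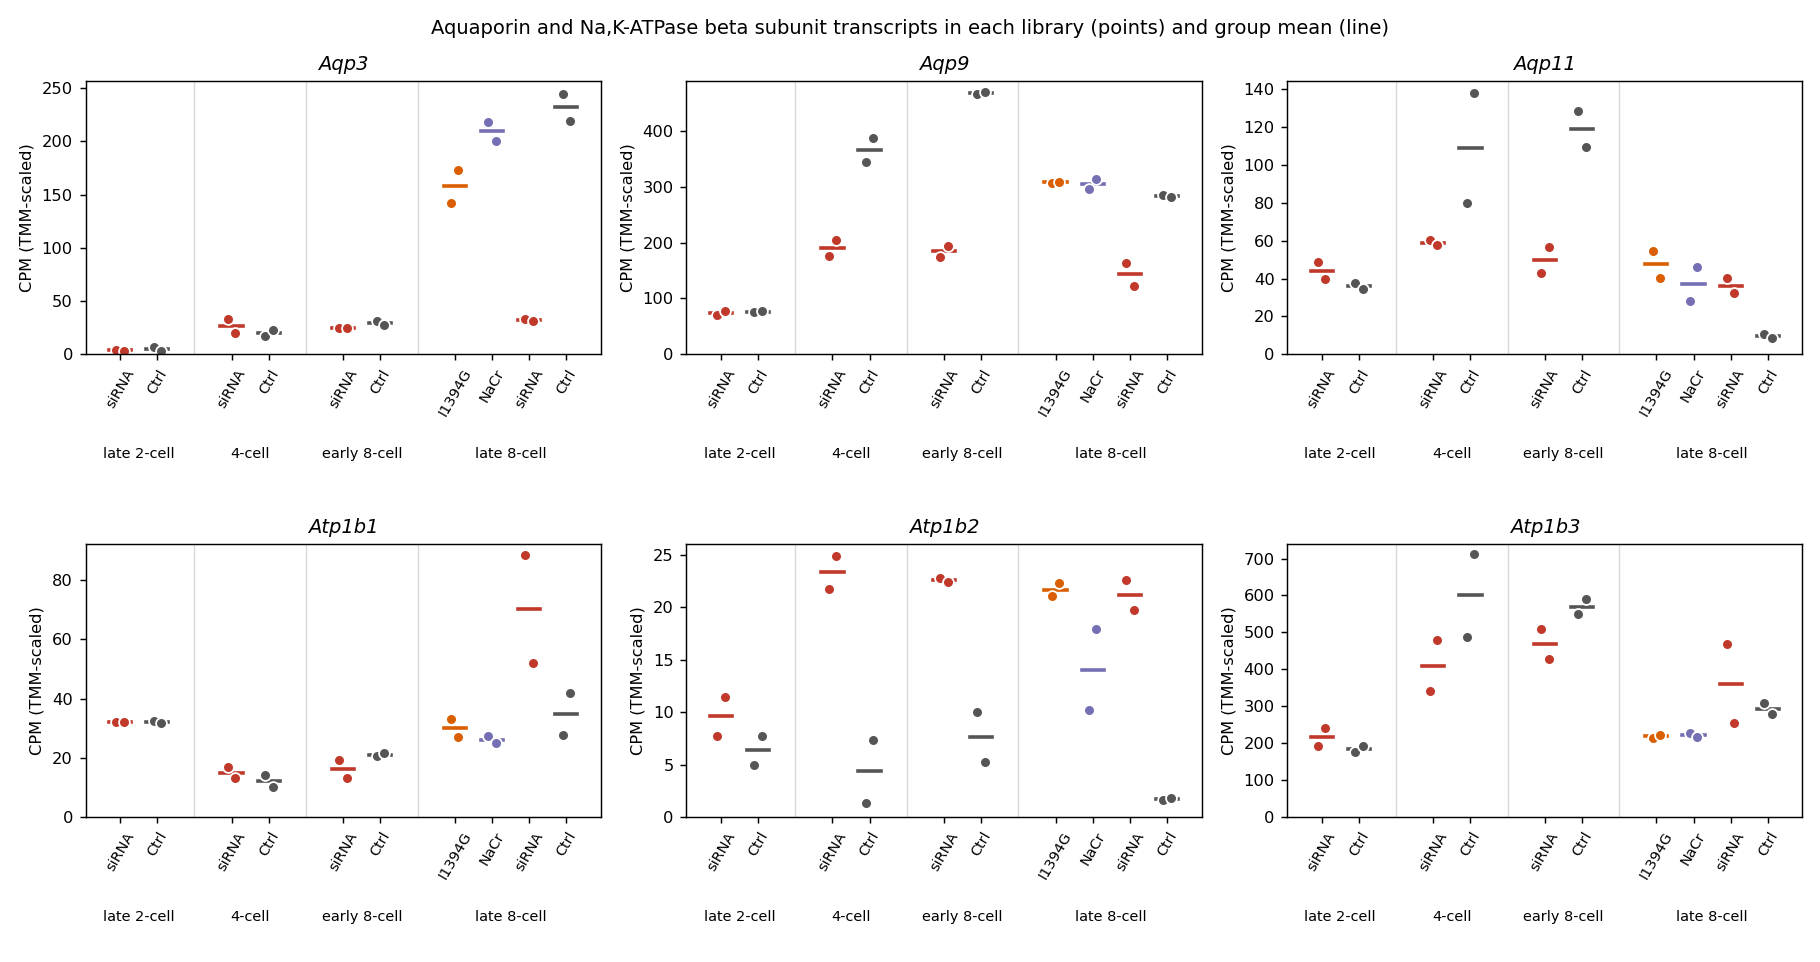
CPM (linear scale from 0) of Aqp3, Aqp9, Aqp11, Atp1b1, Atp1b2 and Atp1b3 in each of the 20 libraries, by stage and group, with points for libraries and short lines for group means of 2. The Aqp3 libraries of P300 siRNA embryos at the late 8-cell stage lie at 32.7 and 30.8 CPM, below all other late 8-cell libraries.

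Aqp9, the second aquaglyceroporin, was lower in P300 siRNA embryos from the 4-cell stage on. At the late 2-cell stage the groups could not be separated, at 70.8 and 77.9 CPM in P300 siRNA embryos and 75.3 and 77.2 CPM in controls. At the 4-cell stage Aqp9 had 176 and 205 CPM in P300 siRNA embryos against 345 and 387 CPM in controls (-0.94 ± 0.17, adjusted p = 0.00169). The early 8-cell values were 175 and 193 CPM in P300 siRNA embryos against 467 and 469.5 CPM in controls, the highest level of the gene (-1.35 ± 0.17, adjusted p = 6.33e-05). From the 4-cell stage on, every P300 siRNA library lay below every control library of its stage.

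Late 8-cell Aqp9 was at 307 and 309 CPM with I1394G, 296 and 314 CPM with NaCr, 164 and 123 CPM with P300 siRNA alone, and 286 and 282 CPM in controls. It was lower in P300 siRNA embryos than in controls (-0.99 ± 0.17, adjusted p = 4.33e-04) and higher in both rescue groups than in P300 siRNA embryos (I1394G 1.11 ± 0.17, adjusted p = 9.40e-04; NaCr 1.09 ± 0.17, adjusted p = 5.39e-04). Both rescue groups lay slightly above the control range without a call, by 0.12 for I1394G (adjusted p = 0.795) and 0.10 for NaCr (adjusted p = 0.873). Such comparisons lacked overlap for 62.0% and 55.5% of all genes. The Aqp9 calls of the knockdown and of the rescues against P300 siRNA held without any 1 library. On the deposited FPKM scale the late 8-cell differences shrank below the threshold, to -0.52 for P300 siRNA against control (adjusted p = 0.185), 0.74 for I1394G against P300 siRNA (adjusted p = 0.0975) and 0.63 for NaCr against P300 siRNA (adjusted p = 0.125), and the 4-cell call was lost too (-0.75, adjusted p = 0.104). FPKM carries no TMM scaling. Relative to its median over the 20 libraries, the log2 ratio of FPKM to CPM for Aqp9 was 0.287 and 0.327 in the P300 siRNA late 8-cell libraries and -0.169 and -0.174 in the controls.

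Aqp11, an aquaporin of internal membranes, changed the direction of its knockdown difference with stage. At the late 2-cell stage it had 48.6 and 39.6 CPM in P300 siRNA embryos and 37.8 and 34.6 CPM in controls. The 4-cell values were 60.4 and 57.5 CPM in P300 siRNA embryos against 80.0 and 138 CPM in controls, and it was lower after the knockdown (-0.89 ± 0.29, adjusted p = 0.0444). At the early 8-cell stage it had 43.0 and 56.6 CPM in P300 siRNA embryos against 128 and 109 CPM in controls (-1.26 ± 0.29, adjusted p = 0.00631). The 4-cell call was lost without control replicate 2 (-0.44, adjusted p = 0.422), P300 siRNA replicate 1 (adjusted p = 0.127) or replicate 2 (adjusted p = 0.147), and the early 8-cell call without P300 siRNA replicate 1 (adjusted p = 0.0759).

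At the late 8-cell stage Aqp11 was higher in all 3 groups that carried the knockdown than in controls of that stage. It had 54.7 and 40.4 CPM with I1394G, 28.2 and 46.3 CPM with NaCr, 40.1 and 32.4 CPM with P300 siRNA alone, and 10.6 and 8.49 CPM in controls. The control libraries were the lowest of all 20, with no overlap with any other group. Aqp11 was 3.77-fold higher in P300 siRNA embryos than in controls (1.92 ± 0.30, adjusted p = 2.05e-04), and higher than in controls with I1394G (2.32 ± 0.30, adjusted p = 5.25e-04) and with NaCr (1.96 ± 0.30, adjusted p = 0.00271). The NaCr call was lost without control replicate 1 (adjusted p = 0.0533) or replicate 2 (adjusted p = 0.0803).

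Against P300 siRNA alone, Aqp11 differed by 0.40 with I1394G (adjusted p = 0.403) and by 0.04 with NaCr (95% interval -0.57 to 0.66, adjusted p = 0.958). Between the early and late 8-cell stages it fell 12.5-fold in controls (-3.64 ± 0.32, adjusted p = 2.09e-06), against -0.47 in P300 siRNA embryos (adjusted p = 0.311). The knockdown difference changed by 3.17 ± 0.42 between these stages (adjusted p = 8.31e-04), in the opposite direction to Aqp3.

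Aqp8, a water channel, was close to absent. Its counts summed to 17 over all libraries, it was at 0 in 15 of 20, and the highest value was 7 counts in early 8-cell P300 siRNA replicate 1. It did not pass the filter on low counts and was not tested. In late 8-cell controls it had 0 counts, which allows up to 0.0798 CPM (3 counts over both libraries, counting error only).

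The water channels shared their summed output differently between groups, on the per-length scale of the deposited FPKM. At the late 8-cell stage Aqp3 made up 36.5% and 43.1% of the aquaporin FPKM (Aqp3, Aqp9 and Aqp11) with I1394G, 51.6% and 45.5% with NaCr, 18.3% and 21.4% with P300 siRNA alone, and 58.2% and 56.2% in controls. Aqp11 made up 29.9% and 30.1% of it in P300 siRNA embryos and 3.35% and 2.90% in controls. Aqp9 stayed between 38.5% and 51.8% in all 8 libraries. These shares do not depend on library scaling.

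**Figure D2:**
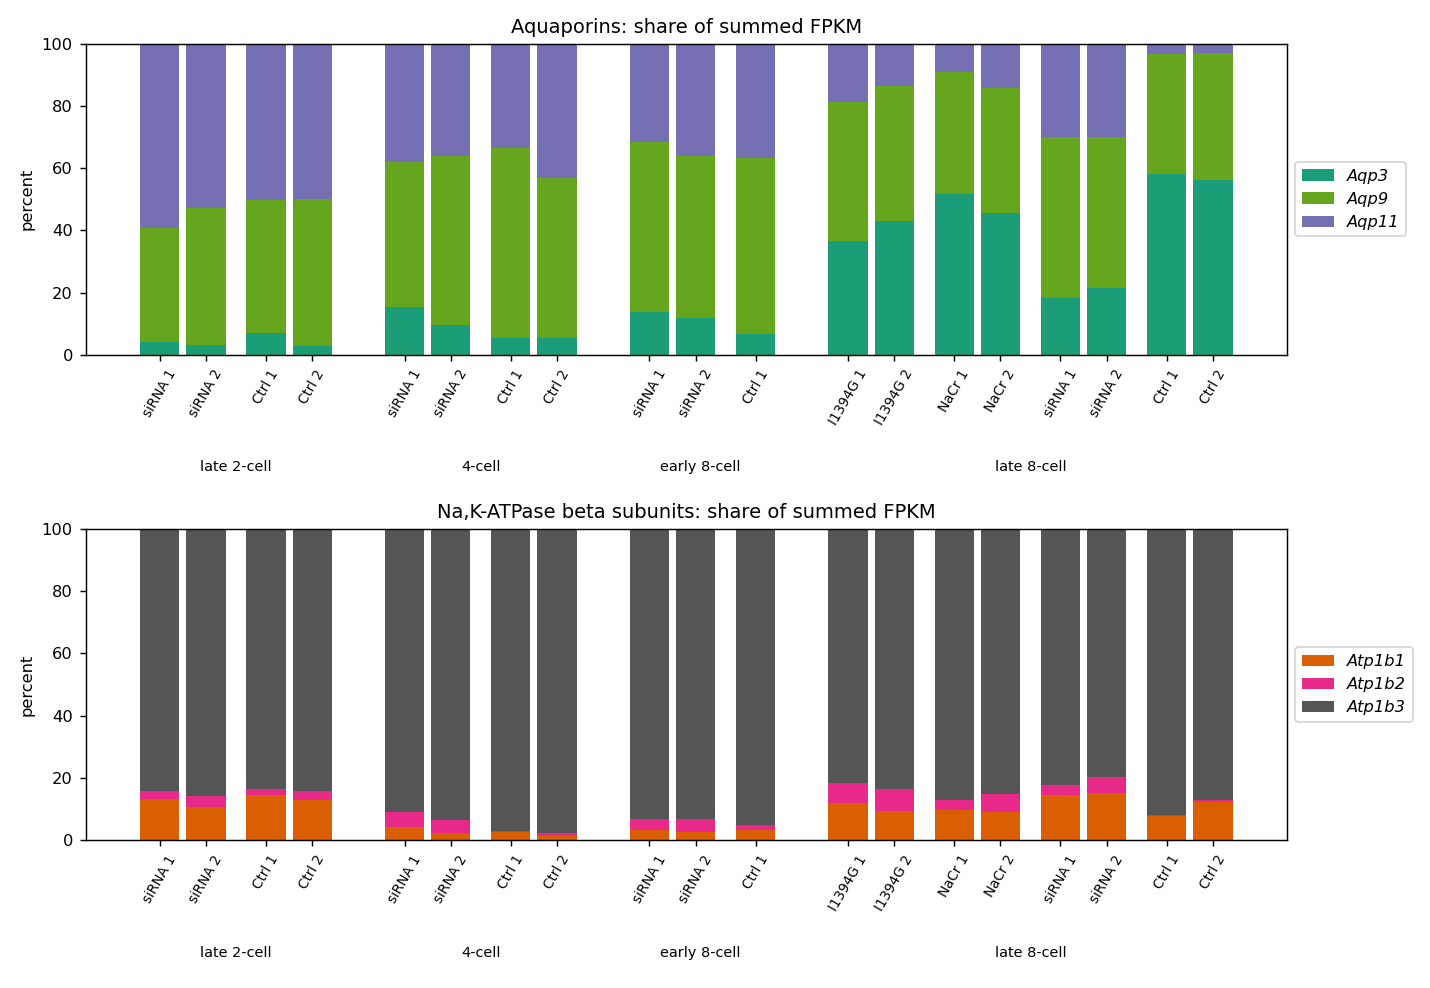
Percent of summed FPKM per library taken by each aquaporin (Aqp3, Aqp9, Aqp11) and by each beta subunit (Atp1b1, Atp1b2, Atp1b3), as stacked bars from 0, without control early 8-cell replicate 2. The Aqp3 share is 58.2% and 56.2% in late 8-cell controls and 18.3% and 21.4% in P300 siRNA embryos of that stage.

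Atp1b1, the beta subunit found with most pumps of epithelia, was higher in late 8-cell P300 siRNA embryos than in any other group. It had 33.2 and 27.1 CPM with I1394G, 27.3 and 25.0 CPM with NaCr, 88.4 and 52.0 CPM with P300 siRNA alone, and 27.6 and 42.0 CPM in controls. The P300 siRNA libraries lay above all others of the stage but differed widely from each other. Atp1b1 was higher in P300 siRNA embryos than in controls (1.003 ± 0.31, adjusted p = 0.0220), and lower than in P300 siRNA embryos with I1394G (-1.21 ± 0.31, adjusted p = 0.0177) and with NaCr (-1.41 ± 0.31, adjusted p = 0.00540). Against controls the difference was -0.21 for I1394G (adjusted p = 0.798) and -0.41 for NaCr (adjusted p = 0.627).

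Without P300 siRNA replicate 1, the shallowest library, all 3 of these calls were lost, at 0.57 against controls (adjusted p = 0.247), -0.78 for I1394G (adjusted p = 0.204) and -0.98 for NaCr (adjusted p = 0.0826). The call against controls was also lost without control replicate 1 (0.73, adjusted p = 0.223), that for I1394G without its replicate 1 (adjusted p = 0.0880) or 2 (adjusted p = 0.182), and that for NaCr without its replicate 2 (adjusted p = 0.0697). Atp1b1 shares exon bases with Nme7 on the other strand (GENCODE, GRCm38), and the strand setting of the counting is unknown, so their reads in the overlap cannot be told apart. Nme7 had 64.9 ± 17.4 CPM in late 8-cell P300 siRNA embryos and 36.8 ± 2.96 CPM in controls (SD, n = 2 each; 0.81, adjusted p = 0.0245), and was not called in either rescue group against P300 siRNA. It was also higher after the knockdown at the 4-cell stage (1.35, adjusted p = 0.00258) and the early 8-cell stage (1.93, adjusted p = 1.20e-04). Atp1b1 was not called at those stages (0.29 and -0.37). The part of the overlap in the Atp1b1 counts was not tested.

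At earlier stages Atp1b1 was not called in the knockdown. It had 32.2 and 32.1 CPM in late 2-cell P300 siRNA embryos and 32.3 and 31.6 CPM in controls. At the 4-cell stage it had 16.9 and 13.04 CPM in P300 siRNA embryos and 14.3 and 10.2 CPM in controls. The early 8-cell values were 19.3 and 13.2 CPM in P300 siRNA embryos and 20.5 and 21.7 CPM in controls, without overlap, as for 50.9% of all genes. Atp1b1 was the 1 gene of the 6 called lower between the late 2-cell and 4-cell stages, in P300 siRNA embryos (-1.11, adjusted p = 0.00584) and in controls (-1.39, adjusted p = 9.84e-04). Atp1b2 was also lower in controls, without a call (-0.49, adjusted p = 0.439). The Atp1b1 call in P300 siRNA embryos was lost without 4-cell replicate 2 (-0.93).

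Atp1b2, a beta subunit best known from glia, was scarce, and higher in P300 siRNA embryos than in controls from the 4-cell stage on. At the late 2-cell stage it had 7.73 and 11.5 CPM in P300 siRNA embryos and 5.00 and 7.73 CPM in controls. At the 4-cell stage it had 21.8 and 24.9 CPM in P300 siRNA embryos against 1.34 and 7.33 CPM in controls, from 13 and 160 counts (2.37 ± 0.54, adjusted p = 0.00747). The 2 control libraries decided the size of that difference, which ranged from 1.67 to 4.11 with 1 library left out. At the early 8-cell stage it had 22.8 and 22.4 CPM in P300 siRNA embryos against 10.04 and 5.20 CPM in controls (1.57 ± 0.53, adjusted p = 0.0498). That call was lost without control replicate 2 (1.17, adjusted p = 0.288), P300 siRNA replicate 1 (adjusted p = 0.126) or replicate 2 (adjusted p = 0.113).

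At the late 8-cell stage Atp1b2 had 21.0 and 22.3 CPM with I1394G, 10.2 and 17.9 CPM with NaCr, 22.6 and 19.8 CPM with P300 siRNA alone, and 1.59 and 1.77 CPM in controls, where it rested on 31 and 32 counts. All 6 libraries with the knockdown lay above both controls. Atp1b2 was 12.5-fold higher in P300 siRNA embryos than in controls (3.65 ± 0.58, adjusted p = 2.17e-04), and this call held in every alternative and without any 1 library. Against P300 siRNA alone, neither rescue group passed the test (I1394G 0.04, adjusted p = 0.986; NaCr -0.60, adjusted p = 0.461).

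Both rescue groups stayed higher than controls in Atp1b2 (I1394G 3.68 ± 0.58, adjusted p = 0.00189; NaCr 3.05 ± 0.57, adjusted p = 0.0101). The I1394G call was lost without control replicate 1 (adjusted p = 0.0607) or 2 (adjusted p = 0.0546). The NaCr call was lost without control replicate 1 (adjusted p = 0.176) or 2 (adjusted p = 0.136), or without NaCr replicate 2 (adjusted p = 0.101).

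Atp1b3, a widely expressed beta subunit, was the most abundant of the 3 per length, at 78.3 to 276 FPKM and 79.8% to 97.9% of the beta subunit FPKM in every library with a usable FPKM column. It was called at no stage of the knockdown. It had 192 and 240.3 CPM in late 2-cell P300 siRNA embryos and 175 and 192 CPM in controls (0.24). The 4-cell values were 340.4 and 478 CPM in P300 siRNA embryos and 487 and 713 CPM in controls (-0.55, adjusted p = 0.145). At the early 8-cell stage it had 508 and 427 CPM in P300 siRNA embryos and 549 and 589 CPM in controls (-0.28, adjusted p = 0.478).

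Late 8-cell Atp1b3 was at 214 and 223 CPM with I1394G, 229 and 217 CPM with NaCr, 469 and 253 CPM with P300 siRNA alone, and 309 and 278 CPM in controls. P300 siRNA and control libraries overlapped (0.30, adjusted p = 0.402), while both rescue groups lay below both of these groups. Such comparisons lacked overlap for 55.5% to 62.0% of all genes. Against P300 siRNA the differences were -0.72 for I1394G (adjusted p = 0.0726) and -0.69 for NaCr (adjusted p = 0.0705). Both passed the threshold with DESeq2 size factors (-0.83, adjusted p = 0.0431, and -0.79, adjusted p = 0.0435). They also passed without the low-count filter (adjusted p = 0.0202 and 0.0217), with the DESeq2 Wald test (adjusted p = 0.0140 and 0.0185) and on FPKM (adjusted p = 0.0253 and 0.0133). They did not pass with a replicate block or with only the groups compared. Without P300 siRNA replicate 2 they grew to -1.09 for I1394G and -1.06 for NaCr. Without P300 siRNA replicate 1 they shrank to -0.20 for I1394G (adjusted p = 0.690) and -0.17 for NaCr (adjusted p = 0.699).

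**Figure D3:**
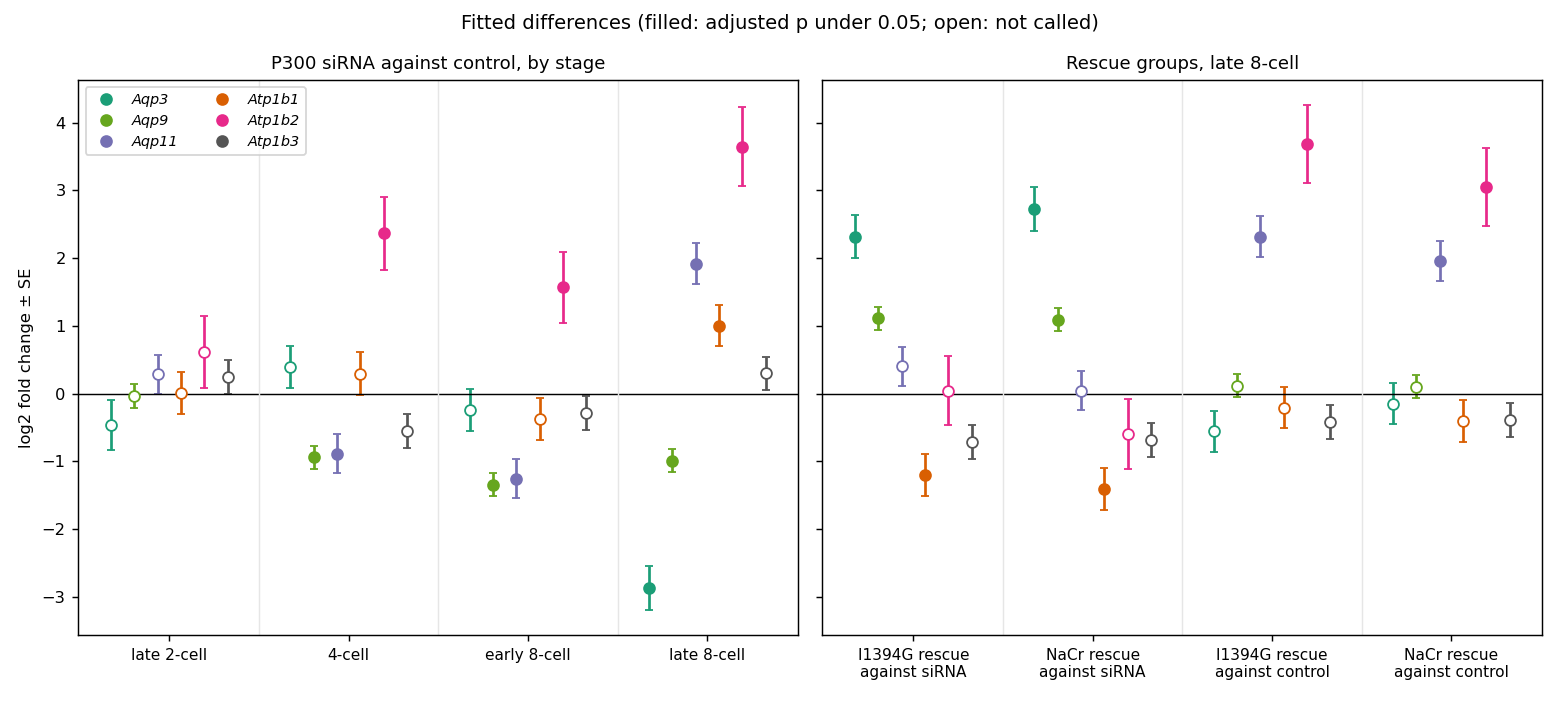
Log2 fold changes with SE bars for 6 genes in the knockdown and late 8-cell rescue comparisons, with filled points for an adjusted p under 0.05. Late 8-cell P300 siRNA embryos lie at -2.87 for Aqp3 and at 3.65 for Atp1b2.

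Counted over the 6 genes tested, the knockdown called 0 at the late 2-cell stage, where 0.00602% of all genes were called by edgeR. None of the 6 had an unadjusted p under 0.05 there, and DESeq2 called 0. It called 3 at the 4-cell stage (15% of all genes) and 3 at the early 8-cell stage (16.5%), in both cases Atp1b2 higher and Aqp9 and Aqp11 lower. In late 8-cell embryos it called 5 (28% of all genes), with Aqp11, Atp1b1 and Atp1b2 higher and Aqp3 and Aqp9 lower. A fit to only the 4 libraries of the 4-cell stage ended all 3 calls there (adjusted p = 0.119 for Aqp9, 0.222 for Aqp11 and 0.151 for Atp1b2). On FPKM, Aqp11 was not called at the 4-cell stage (adjusted p = 0.246) or, with the FPKM column of control early 8-cell replicate 2, which did not follow its counts, left out, at the early 8-cell stage (-1.08, adjusted p = 0.0731). Atp1b2 was not called at the early 8-cell stage in that fit either (1.20, adjusted p = 0.0806). P300 siRNA and control libraries did not overlap for 2 of the 6 genes at the late 2-cell stage (47.2% of all genes), 4 at the 4-cell stage (44.1%), 6 at the early 8-cell stage (50.9%) and 5 at the late 8-cell stage (66.2%).

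Against P300 siRNA, I1394G called 3 of the 6 (10.8% of all genes) and NaCr 3 (15.3%), in both cases Aqp3 and Aqp9 higher and Atp1b1 lower. Against controls, I1394G called 2 (3.17% of all genes) and NaCr 2 (1.57%), in both cases Aqp11 and Atp1b2 higher. Of the 5 genes called in the knockdown at this stage, 3 were called in the opposite direction in both rescue groups against P300 siRNA. The other 2, Aqp11 and Atp1b2, were called higher than in controls in both. These calls are not independent of the knockdown calls. The comparisons with P300 siRNA reuse its 2 libraries, and those with controls reuse the 2 control libraries. Among the 3, the Atp1b1 calls depended on P300 siRNA replicate 1, as given above. I1394G against NaCr called 0 of the 6 and 0% of all genes with edgeR, at 323 genes with an unadjusted p under 0.05 and 0 with DESeq2. None of the 6 was among those 323.

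Most of these genes also moved with stage. Between the late 2-cell and 4-cell stages, edgeR called 5 of the 6 in P300 siRNA embryos (58.5% of all genes) and 5 in controls (61.2%). Aqp3 rose by 2.87 in P300 siRNA embryos (adjusted p = 2.24e-06) and by 2.01 in controls (adjusted p = 5.37e-05). Aqp9 rose by 1.36 in P300 siRNA embryos (adjusted p = 2.59e-06) and by 2.26 in controls (adjusted p = 5.05e-09). The difference between these Aqp9 changes was -0.91 ± 0.24 (adjusted p = 0.0419), the 1 call among the 6 (4.28% of all genes), and it held in 1 of 8 fits that left out a library, with adjusted p from 0.0319 to 0.173.

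Aqp11 rose by 1.59 in controls (adjusted p = 1.39e-04) and was not called in P300 siRNA embryos. Atp1b3 rose by 0.92 in P300 siRNA embryos (adjusted p = 0.00466) and by 1.71 in controls (adjusted p = 1.59e-05). The P300 siRNA call was lost without 4-cell replicate 2 (adjusted p = 0.0725) or late 2-cell replicate 1 (adjusted p = 0.0590). Atp1b2 rose by 1.27 in P300 siRNA embryos (adjusted p = 0.0447), a call lost without any 1 of the 4 libraries (adjusted p from 0.0712 to 0.224).

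Between the 4-cell and early 8-cell stages edgeR and DESeq2 called none of the 6 in P300 siRNA embryos (0.494% of all genes) or in controls (1.13%). At an unadjusted p under 0.05 there were 0 in P300 siRNA embryos and 2 in controls, Aqp9 and Atp1b1. The knockdown difference also changed for 0 of the 6 between these stages (0% of all genes), with 0 at an unadjusted p under 0.05 and 0 with DESeq2.

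Between the early and late 8-cell stages 1 of the 6 was called in P300 siRNA embryos (13% of all genes), Atp1b1, which rose by 2.10 (adjusted p = 8.08e-04). In controls 5 were called (26.2%). Beside Aqp3 and Aqp11, Aqp9 fell by 0.72 (adjusted p = 0.00456), Atp1b2 fell by 2.18 (adjusted p = 0.00854) and Atp1b3 fell by 0.96 (adjusted p = 0.00958), while Atp1b1 had a difference of 0.72 (adjusted p = 0.0941). The Aqp9 call was lost without late 8-cell control replicate 2 (adjusted p = 0.0548). The Atp1b3 call was lost without early 8-cell control replicate 2 (adjusted p = 0.0577) or late 8-cell control replicate 2 (adjusted p = 0.0954). The Atp1b2 call was lost without early 8-cell control replicate 1 (-1.65, adjusted p = 0.0736) or without late 8-cell control replicate 1 (adjusted p = 0.0670) or 2 (adjusted p = 0.0640). The test of the difference between the courses called 2 of the 6 (6.63% of all genes), Aqp3 and Aqp11. It gave 1.38 for Atp1b1 (adjusted p = 0.0640) and 2.08 for Atp1b2 (adjusted p = 0.102).

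**Figure D4:**
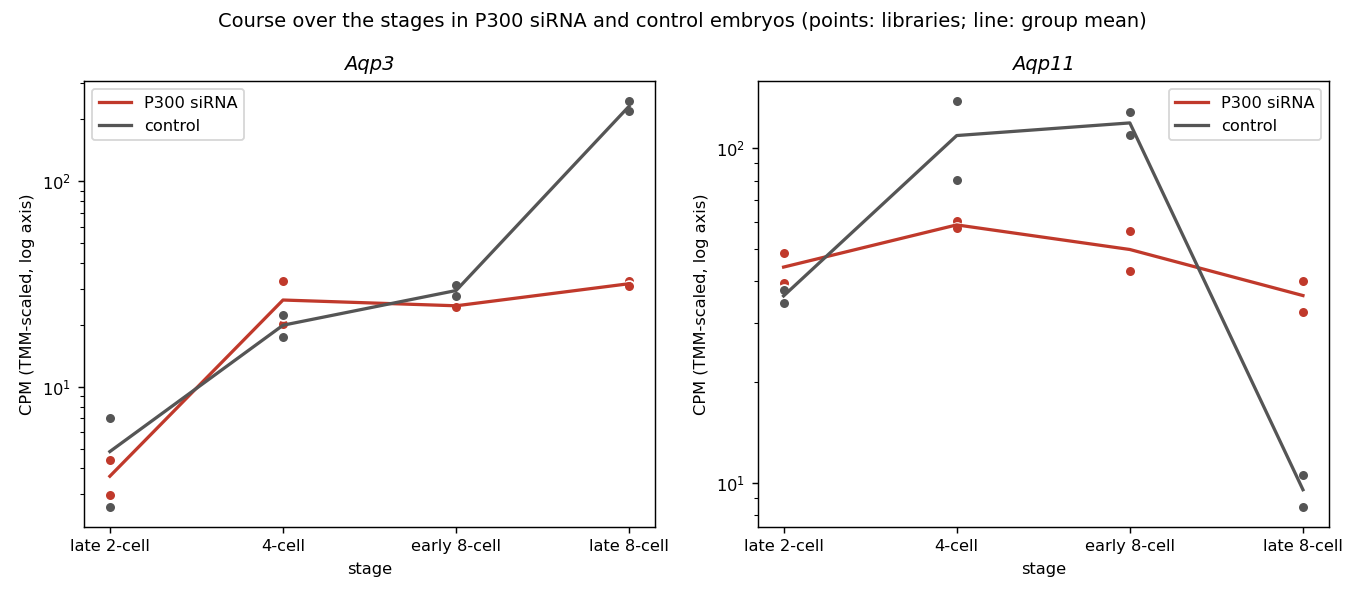
Mean CPM (log scale) of Aqp3 and Aqp11 from the late 2-cell to the late 8-cell stage in P300 siRNA and control embryos, with library values as points. Between the early and late 8-cell stages the Aqp3 courses separate and the Aqp11 courses cross.

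Over the 10 groups, mean Aqp9 was highest in early 8-cell controls at 468 CPM, followed by 4-cell controls at 366 CPM. These 2 groups did not overlap, as for 27.4% of all genes, and their difference was not called (0.36, adjusted p = 0.380). Aqp11 was highest in early 8-cell controls at 119 CPM and 4-cell controls at 109 CPM, which overlapped, and lowest in late 8-cell controls at 9.54 CPM. Atp1b2 was highest in 4-cell P300 siRNA embryos at 23.3 CPM and early 8-cell P300 siRNA embryos at 22.6 CPM, which overlapped. It was lowest in late 8-cell controls at 1.68 CPM, which overlapped with 4-cell controls at 4.34 CPM. Atp1b3 was highest in 4-cell controls at 600.0 CPM and early 8-cell controls at 569 CPM, which overlapped.

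Other genes followed similar courses, named here by Pearson's r of log2 CPM over the 10 group means among 7945 genes with a mean of at least 10 CPM. These r are descriptions over groups that share stages and libraries. Closest to Aqp3 were Ccdc51 (0.993) and Clic3 (0.992), and closest to Aqp9 were Tor2a (0.992) and Bcas3 (0.989). Closest to Aqp11 were Pfkfb3 (0.934) and Pla2g4e (0.920). For Atp1b1 they were Myo6 (0.943) and Nfe2l2 (0.940), for Atp1b2 Ccm2 (0.914) and Trrap (0.896), and for Atp1b3 Fam91a1 (0.980) and Bdp1 (0.975). Between members, Aqp3 and Aqp9 had an r of 0.713, Aqp3 and Aqp11 of -0.388, and Atp1b1 and Atp1b3 of -0.570.

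Other genes of fluid transport and sealing gave a mixed picture. Most calls were in the tight junction seal, where 9 genes were tested, against 6 or fewer in each other list. Of 8 other aquaporins, 2 were tested. Mip, the lens aquaporin, was called higher in late 8-cell P300 siRNA embryos, from 34 counts against 2 in controls (adjusted p = 0.0471), a call lost with any 1 library left out (adjusted p from 0.0504 to 0.548). Of 7 FXYD genes, small proteins that modulate the pump, 3 were tested. Fxyd4 was lower at 3.94 ± 1.07 CPM in late 8-cell P300 siRNA embryos against 17.5 ± 8.70 CPM in controls (SD, n = 2 each; -2.10 ± 0.52, adjusted p = 0.00661). That call was lost without control replicate 1 (-1.49, adjusted p = 0.119) or P300 siRNA replicate 1 (adjusted p = 0.0522). Neither group had a further call in the knockdown or in a rescue against P300 siRNA.

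Of 10 genes of ion entry and exchange, 6 were tested. In 4-cell embryos 1 was called higher, the chloride channel gene Cftr, whose counts came from P300 siRNA replicate 1 alone (37 counts), with 0 in the other 3 libraries. At the early 8-cell stage Slc12a2, a sodium, potassium and chloride cotransporter, was lower at 364 ± 8.68 CPM in P300 siRNA embryos against 690.3 ± 257 CPM in controls (SD, n = 2 each; -0.92 ± 0.29, adjusted p = 0.0346). Its call was lost without control replicate 2 (-0.48, adjusted p = 0.385) or P300 siRNA replicate 1 (adjusted p = 0.122) or 2 (adjusted p = 0.134). Slc9a3r1, a scaffold of the sodium-proton exchanger, was higher at 16.1 ± 3.87 CPM in P300 siRNA embryos against 4.68 ± 1.04 CPM in controls (SD, n = 2 each; 1.78 ± 0.57, adjusted p = 0.0393), a call lost with any 1 library left out (adjusted p from 0.0584 to 0.212). No gene of this group was called at the late 8-cell stage.

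All 9 tight junction genes listed were tested. The knockdown called 1 higher and 2 lower at the 4-cell stage (15% of all genes called, either direction). It called 1 higher and 6 lower at the early 8-cell stage (16.5%), and 1 higher and 4 lower at the late 8-cell stage (28%). The medians were -0.50, -1.74 and -0.98 in that order, against 0, 0.04 and 0.06 over all genes. The gene that was higher at all 3 stages was Cldn6, a claudin of early epithelia. It was at 368 ± 70.8 CPM in late 8-cell P300 siRNA embryos against 177 ± 41.9 CPM in controls (SD, n = 2 each; 1.06 ± 0.22, adjusted p = 0.00222), a call lost without control replicate 1 (0.83, adjusted p = 0.0563). F11r, a junctional adhesion molecule, was lower at the 4-cell stage (-1.55, adjusted p = 1.86e-04), the early 8-cell stage (-2.02, adjusted p = 1.32e-05) and the late 8-cell stage (-0.996, adjusted p = 0.00178). Its late 8-cell level was 195 ± 3.89 CPM in P300 siRNA embryos against 390.1 ± 3.66 CPM in controls (SD, n = 2 each). The 4-cell F11r call was lost on FPKM (-1.33, adjusted p = 0.0942) and with only the groups compared (-1.54, adjusted p = 0.0575). A fit to only the groups compared also ended the 4-cell Cldn6 call (1.22, adjusted p = 0.102).

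Ocln, which codes for the junction protein occludin, was lower at 30.5 ± 9.03 CPM in late 8-cell P300 siRNA embryos against 113 ± 6.12 CPM in controls (SD, n = 2 each; -1.91 ± 0.31, adjusted p = 2.86e-04). Cldn7, a claudin, was lower at 101 CPM in P300 siRNA embryos against 207 CPM in controls (-1.03 ± 0.23, adjusted p = 0.00351). On FPKM these late 8-cell calls of F11r (-0.51, adjusted p = 0.462), Ocln (-1.33, adjusted p = 0.0889) and Cldn7 (-0.55, adjusted p = 0.165) were lost. At the 4-cell stage Cldn4, another claudin, was lower at 49.9 CPM in P300 siRNA embryos against 179 CPM in controls (-1.86 ± 0.53, adjusted p = 0.0259), a call lost without control replicate 1 (-1.44, adjusted p = 0.0905) or P300 siRNA replicate 2 (-1.12, adjusted p = 0.150). At the early 8-cell stage Cldn6 was higher (2.25 ± 0.23, adjusted p = 1.32e-05), Ocln lower (-1.88 ± 0.31, adjusted p = 5.41e-04) and Tjp1, which codes for the junction scaffold ZO-1, lower (-1.74 ± 0.37, adjusted p = 0.00390). The Tjp1 call was lost without P300 siRNA replicate 2 (-1.35). It was also lost on FPKM with the column of control early 8-cell replicate 2 left out (-1.24, adjusted p = 0.0682).

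Among late 8-cell embryos, I1394G called 3 of the 9 junction genes higher than in P300 siRNA embryos (10.8% of all genes called, either direction). NaCr called 4 of the 9 higher (15.3%). The medians were 0.53 with I1394G (-0.07 over all genes) and 0.57 with NaCr (-0.13). F11r had 384 CPM with I1394G, 495 CPM with NaCr and 195 CPM with P300 siRNA alone (I1394G 0.97, adjusted p = 0.00609; NaCr 1.34, adjusted p = 5.09e-04). Ocln had 73.4 CPM with I1394G, 84.6 CPM with NaCr and 30.5 CPM with P300 siRNA alone (I1394G 1.29, adjusted p = 0.0127; NaCr 1.49, adjusted p = 0.00349). Cldn7 was called with both as well (I1394G 0.98, adjusted p = 0.0125; NaCr 1.06, adjusted p = 0.00538), and Cldn4 with NaCr alone among these calls (1.86, adjusted p = 0.0223). The 3 I1394G calls were each lost without I1394G replicate 2 (adjusted p = 0.0728 for F11r, 0.0525 for Cldn7 and 0.0698 for Ocln). Cldn7 was also lost without I1394G replicate 1 (adjusted p = 0.112) or P300 siRNA replicate 1 (adjusted p = 0.0748), and Ocln without I1394G replicate 1 (adjusted p = 0.0747) or P300 siRNA replicate 2 (adjusted p = 0.103). The Cldn4 call with NaCr was lost with any 1 library left out (adjusted p from 0.0508 to 0.155). None of these 7 rescue calls passed on FPKM (adjusted p from 0.154 to 0.460).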

How the data were processed

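RNA-seq of 20 mouse embryo libraries in 10 groups of 2 was analysed from raw gene counts and FPKM, both deposited by the authors as tables of 25208 gene symbols. The submitters' processing notes list Cufflinks 2.2, HISAT2 2.2.1, cutadapt 4.1, bcl2fastq 2.20.0.422 and the mouse build mm9, and the counting tool and its strand setting are not given in the sources used here. The deposited FPKM column of control early 8-cell replicate 2 did not follow its counts (r = 0.887 on the log2 scale, against 0.992 to 0.999 elsewhere) and was left out of the FPKM shares and levels. FPKM fits used all columns unless it is said that this column was left out.

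Counts were tested with edgeR 4.0.16 in R 4.3.3, with 1 coefficient per group over all 20 libraries, the default low-count filter (16603 genes), TMM scaling, a two-sided quasi-likelihood F test (10 residual and 7.98 prior degrees of freedom) and Benjamini-Hochberg adjustment over all genes. The SE is the log2 fold change over the square root of F. The procedure was tested on simulated data. Stage and knockdown were tested as interactions. Alternatives were DESeq2 size factors, the DESeq2 1.42.0 Wald test, no filter, limma 3.58.1 on log2 FPKM plus 1 or 0.1 (a scale that understates low genes), only the groups compared, a replicate block and each library left out.

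Every member was named, with Ep300, up to 4 called genes per pathway list and the 2 genes of most similar course. Results of 1 further list are not reported here. Promoters came from RefSeq tables. The members and lists were chosen with earlier results of these data known. With 3.20 M to 24.8 M counts per library, intervals on 0 counts cover counting error only.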

Additional observations from a re-analysis of the deposited data

Results flagged for a closer look

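The knockdown difference of Aqp3 and Aqp11 changed between the early and late 8-cell stages by a test of the change itself, at -2.63 for Aqp3 (adjusted p = 0.00336) and at 3.17 for Aqp11 (adjusted p = 8.31e-04). Between the late 2-cell and 4-cell stages the knockdown difference of Aqp9 changed by -0.91 (adjusted p = 0.0419).

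Of the 9 tight junction genes the same tests called Cldn6 and F11r at both steps, where 4.28% and 6.63% of all genes were called. How far these junction calls depend on the processing is not given here. Between the late 2-cell and 4-cell stages the knockdown difference of Cldn6 changed by 1.30 (adjusted p = 0.0293) and that of F11r by -1.19 (adjusted p = 0.0293). Between the early and late 8-cell stages it changed by -1.19 for Cldn6 (adjusted p = 0.0336) and by 1.02 for F11r (adjusted p = 0.0415).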

How the results depend on the processing

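Of 40 called differences of the 6 genes, 18 stayed called in every alternative and with every library left out, and 0 changed sign. With 2 libraries a group, a gene without a call is not shown to be unchanged. Called genes among the 6 came to 1 and 1 (log2 FPKM plus 1 and plus 0.1) and 0 (only the groups compared) for the 4-cell knockdown, and to 0 and 0 (FPKM, all columns), 1 (FPKM without the mismatched column) and 1 to 3 with a library left out for the early 8-cell knockdown. Against controls, I1394G gave 4 with only the groups compared and 1 to 2 with a library left out, and NaCr 0 to 2. The late against early 8-cell comparison gave 2 to 4 in controls and 1 to 2 in P300 siRNA embryos with a library left out. The 4-cell against late 2-cell comparison in P300 siRNA embryos gave 3 and 3 on FPKM and 2 to 4 with a library left out. The change in knockdown difference to the 4-cell stage gave 0 without the filter, 0 and 0 on FPKM, 0 with only the groups compared and 0 to 2 with a library left out. The change to the late 8-cell stage gave 4 with DESeq2. For the fits of only the groups compared, fewer libraries estimate the spread; the cause of the other shifts was not tested.

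Labels number the replicates, but same-numbered libraries deviated together at correlations of 0.143, 0.301, 0.0328 and 0.0519 over the 4 stages of the knockdown, so the block is given here alone. With a replicate block, Aqp11 at the 4-cell stage (adjusted p = 0.0514) and Atp1b2 at the early 8-cell stage (adjusted p = 0.0516) lost their calls, leaving 2 genes each, and no other of the 40 did. Crossing the numbers called 238 genes for NaCr against control and 0 for I1394G against NaCr.

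Genes called in all moved from 1 to as many as 508 at the late 2-cell stage and from 2494 to as few as 59 at the 4-cell stage (only the groups compared), and from 2741 to as few as 165 at the early 8-cell stage (FPKM, all columns). Leaving out a library gave 2215 to 3425 genes at the late 8-cell stage (4645 with all), 449 to 1948 for I1394G (1789) and 912 to 2282 for NaCr (2546) against P300 siRNA, and 56 to 162 (527) and 12 to 113 (261) against controls. Only the groups compared gave 4031 and 2263 against controls. No filter gave 20 for I1394G against NaCr. DESeq2 size factors moved the median of all genes by 0.14 for the late 8-cell knockdown, by 0.11 for its change from the early 8-cell stage, and by -0.26 and -0.25 between the late 2-cell and 4-cell stages in P300 siRNA embryos and controls. They put the share of higher calls at 45.3% for I1394G against P300 siRNA (57.5% with TMM) and at 60.9% for the change to the late 8-cell stage (45.4%).

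Uncalled differences that changed sign were Aqp3 at the early 8-cell knockdown on FPKM with all columns (0.54 and 0.59), Atp1b3 there on FPKM without the mismatched column (0.048), Atp1b3 at the late 8-cell knockdown without P300 siRNA replicate 1 (-0.22, in a range up to 0.67), and Atp1b1 with I1394G against control without control replicate 2 (0.13, in a range down to -0.47). Atp1b2 with I1394G against P300 siRNA came to -0.064 with DESeq2 size factors, -0.066 with DESeq2, -0.30 and -0.33 on FPKM and -0.047 without P300 siRNA replicate 2, in a range up to 0.14. Aqp11 with NaCr against P300 siRNA came to -0.045 and -0.045 with DESeq2 size factors and DESeq2, -0.44 and -0.46 on FPKM, -0.10 without P300 siRNA replicate 2 and -0.35 without NaCr replicate 2, in a range up to 0.36.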
